A study of Mus musculus with 19 samples.

Results

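Chromatin accessibility was analysed at 10 mouse genes of MHC class I antigen presentation, namely the heavy chains H2-K1 and H2-D1, B2m, the peptide transporter genes Tap1 and Tap2, Tapbp, the immunoproteasome genes Psmb8, Psmb9 and Psmb10, and the regulator Nlrc5. Accessibility came from ATAC-seq: a transposase inserts sequencing adapters where chromatin is open, and reads pile up at those places. A peak was assigned to a gene when its centre lay in the gene body or within 10 kb of either end (RefSeq, GRCm38.p6), a rule that uses position and no measured value. It chose 32 of the 90154 peaks. Of these, 17 lay on chromosome 17, 12 on chromosome 8 and 3 on chromosome 2, and all 32 were 500 bp long. Nlrc5 had 7 peaks, H2-D1, Tapbp and Psmb10 had 5 each, Tap1 and Tap2 had 4 each, B2m and Psmb8 had 3 each, H2-K1 had 2 and Psmb9 had 1. The windows of neighbouring genes overlap, so 4 peaks counted for more than 1 gene. For 11 of the 32 peaks the nearest end of a protein-coding gene belonged to a gene outside the pathway.

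MHC class I molecules show fragments of a cell's own proteins to CD8 T cells. The proteasome cuts proteins into peptides, and inflammatory signals exchange 3 of its catalytic subunits for those encoded by Psmb8, Psmb9 and Psmb10. TAP1 and TAP2 form the pump that carries peptides into the endoplasmic reticulum, where tapasin, the product of Tapbp, holds the pump next to empty class I molecules. Each such molecule is a heavy chain, such as H2-K1 or H2-D1, bound to the light chain B2m. NLRC5 is a transcriptional activator of class I genes and acts through a promoter module that includes the X2 and Y boxes. Neural cells at rest show little class I, and cytokines raise it. TNF signals through NF-κB, whose binding site in class I promoters is known as a kappa-B motif.

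The cells came from the ventricular zone of wild-type C57BL/6J embryos at embryonic day 14. They were grown with EGF as floating neurospheres (NSPs) or were moved to medium with serum on coated plates to differentiate into astrocytes. The 19 libraries formed 6 groups, with 3 libraries of untreated NSPs, 3 of untreated cells after 24 h, 3 after 24 h with TNF at 50 ng/ml, 3 of untreated cells after 72 h, 3 after 72 h with TNF and 4 of untreated cells after 1 week. All groups were cultures of wild-type cells, and no group at 1 week received TNF. The labels do not tie a library to a brain or a culture, so the p-values measure the spread between these libraries, which may be technical. The cultures were measured in bulk, where fewer cells with an open site and less opening per cell cannot be told apart.

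The values are normalised reads, that is, reads in a peak divided by a size factor per library. Reads in all peaks ranged from 9640256 to 39349111 per library, and a member peak held between 10 and 3611 reads with a median of 153.5. NSP replicate 1 stood apart from the other NSP libraries, with Spearman correlations across peaks of 0.916 and 0.926 against 0.983 between the other two. The names of all 72 h and 1 week libraries carry a tag that the NSP and 24 h libraries lack, so differences between these sets and the tag cannot be told apart, while each TNF comparison lies within 1 set. The astrocyte label was checked at the peak nearest to the start of each marker. Gfap, an intermediate filament gene of astrocytes, rose from 108 normalised reads in NSPs to 489 at 24 h, 529 at 72 h and 258 at 1 week. Other astrocyte markers did not all follow it. Over the 6 astrocyte marker peaks and against NSPs, 24 h showed 1 gain and 3 losses (Slc1a3, S100b and Sox9). At 72 h there were 2 gains and 2 losses (Aldh1l1 and S100b), and at 1 week 3 gains and 1 loss (S100b). Of all peaks, 24.2% gained and 23% lost at 24 h, 28.3% and 30.9% at 72 h, and 33.7% and 33.6% at 1 week. Aqp4 and Slc1a2 had no peak within 1 kb of their starts, and the sum over the 6 astrocyte markers with one did not separate NSPs (1778 to 2337) from untreated cells at 72 h (2008 to 2180). The sum over 4 progenitor markers was lower at 72 h (1598 to 1934) than in NSPs (4184 to 4746).

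Windows of the 250 bases before the start were found in the RefSeq table (GRCm38.p6) for 8 of the 10 genes. The table held none for Tap2 and Nlrc5. They are printed for the 3 genes whose start peaks changed with TNF, each on the strand of the gene, with matches to the kappa-B motif and to the core of the interferon-stimulated response element (GAAANNGAAA) in capitals. The stretch between Psmb9 and Tap1 is printed beside them, because both genes start from it and its peak was not called with TNF.

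H2-K1, chr17:34000348-34000597, minus strand: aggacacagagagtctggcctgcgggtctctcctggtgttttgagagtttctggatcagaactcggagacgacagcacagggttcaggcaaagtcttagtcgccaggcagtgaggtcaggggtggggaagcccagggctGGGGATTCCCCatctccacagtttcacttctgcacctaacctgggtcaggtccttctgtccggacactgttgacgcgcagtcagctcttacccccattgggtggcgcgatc
H2-D1, chr17:35262844-35263093, plus strand: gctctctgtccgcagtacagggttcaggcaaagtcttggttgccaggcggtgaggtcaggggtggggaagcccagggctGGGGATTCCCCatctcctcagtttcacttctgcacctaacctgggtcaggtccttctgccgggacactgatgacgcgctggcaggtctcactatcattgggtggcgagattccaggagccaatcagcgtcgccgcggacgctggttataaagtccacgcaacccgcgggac
B2m, chr2:122147437-122147686, plus strand: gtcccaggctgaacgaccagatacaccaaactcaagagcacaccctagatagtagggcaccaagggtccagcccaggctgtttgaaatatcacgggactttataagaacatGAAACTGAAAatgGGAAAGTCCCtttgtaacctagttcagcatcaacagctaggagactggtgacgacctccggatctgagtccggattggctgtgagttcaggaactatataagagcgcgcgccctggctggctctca
Between Psmb9 and Tap1, chr17:34187331-34187555, plus strand: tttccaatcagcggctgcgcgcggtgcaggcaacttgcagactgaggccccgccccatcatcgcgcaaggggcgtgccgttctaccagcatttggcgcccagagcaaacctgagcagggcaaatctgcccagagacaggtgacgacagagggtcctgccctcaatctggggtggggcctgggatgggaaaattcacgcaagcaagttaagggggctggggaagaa

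Both strands were searched. The kappa-B motif lay in 3 of the 8 windows, those of H2-K1, H2-D1 and B2m, against 9.3% of all 27025 windows in the table. In H2-K1 and H2-D1 the match was the same stretch, GGGGATTCCCC, read as 2 overlapping matches, and it began 111 bases before the H2-K1 start and 171 bases before the H2-D1 start. In B2m the match began 126 bases before the start and followed the only interferon-response core found, at 139 bases before it. All these matches lay inside the start peaks, between 73.5 and 99.5 bases from the peak centre. The interferon-response core was in 1 of 8 windows (3.0% of all windows). The X2 box core TGACG was in 5 of 8 (17.9%), the Y box CCAAT in 6 of 8 (34.5%), the gamma-activated site TTCNNNGAA in Psmb8 alone (7.2%) and AP-1 (TGANTCA) in 0 of 8 (6.9%). The Tap1 and Psmb9 windows overlap and count the same X2 and Y matches. The X2 core began 41 bases before the H2-K1 start and 101 before the H2-D1 start, and a Y box 16 and 76 bases before them. The kappa-B, X2 and Y matches were thus shifted alike against the starts used for these genes. Only exact matches to each motif were counted, so a window without one may still hold a looser form of the element. This applies to the interferon-response core at H2-K1 and H2-D1 too. A match is a description of letters and was not tested as a binding site.

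The H2-K1 and H2-D1 windows are alike, with 161 identical bases in 177 aligned columns (91.0%). Their longest shared run was 47 bases, shorter than the 75-base reads, and none of their 75-base stretches recurred in another promoter window of the table. Class I genes are a family of near copies, and reads from elsewhere in the family were not checked, so the values of H2-K1 and H2-D1 are uncertain to that extent. H2-K1 has a further annotated start upstream, and the window printed for it lies within the longer gene body.

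TNF was compared with no TNF at 24 h and at 72 h. With TNF, accessibility rose at both times at the H2-K1 promoter, at a site within Nlrc5 and at a site past Tap2. At 72 h the promoters of H2-D1 and B2m were called higher as well, and the B2m call was lost when some single libraries were left out. Neither effect was called as different between the times. The promoter shared by Tap1 and Psmb9 and the start peaks of Tap2, Tapbp, Psmb8, Psmb10 and Nlrc5 did not pass the test at either time. A call is an adjusted p under 0.05 in limma-trend over 88919 peaks. At 24 h, 4 of 32 member peaks were called higher, where 7.06% of all peaks were, and 1 was called lower, where 3.53% were. At 72 h, 5 were called higher against 6.24% of all peaks and 0 lower against 5.55%. The median log2 fold change of the 32 peaks was 0.12 at 24 h and 0.22 at 72 h, beside -0.03 and 0.03 over all peaks. Of the 9 start peaks, 1 was called at 24 h and 3 at 72 h. All 5 peaks called higher at 72 h were nearest to a gene of the pathway. Of the 11 peaks nearest to another gene, 1 was called at 24 h and 0 at 72 h. In 11 peaks, counts of 0 or 1 lie near the shares of all peaks. The median log2 fold change at 24 h was 0.16 for the 21 peaks nearest to a pathway gene and 0.03 for these 11. At 72 h the medians were 0.27 and 0.20.

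**Figure D1:**
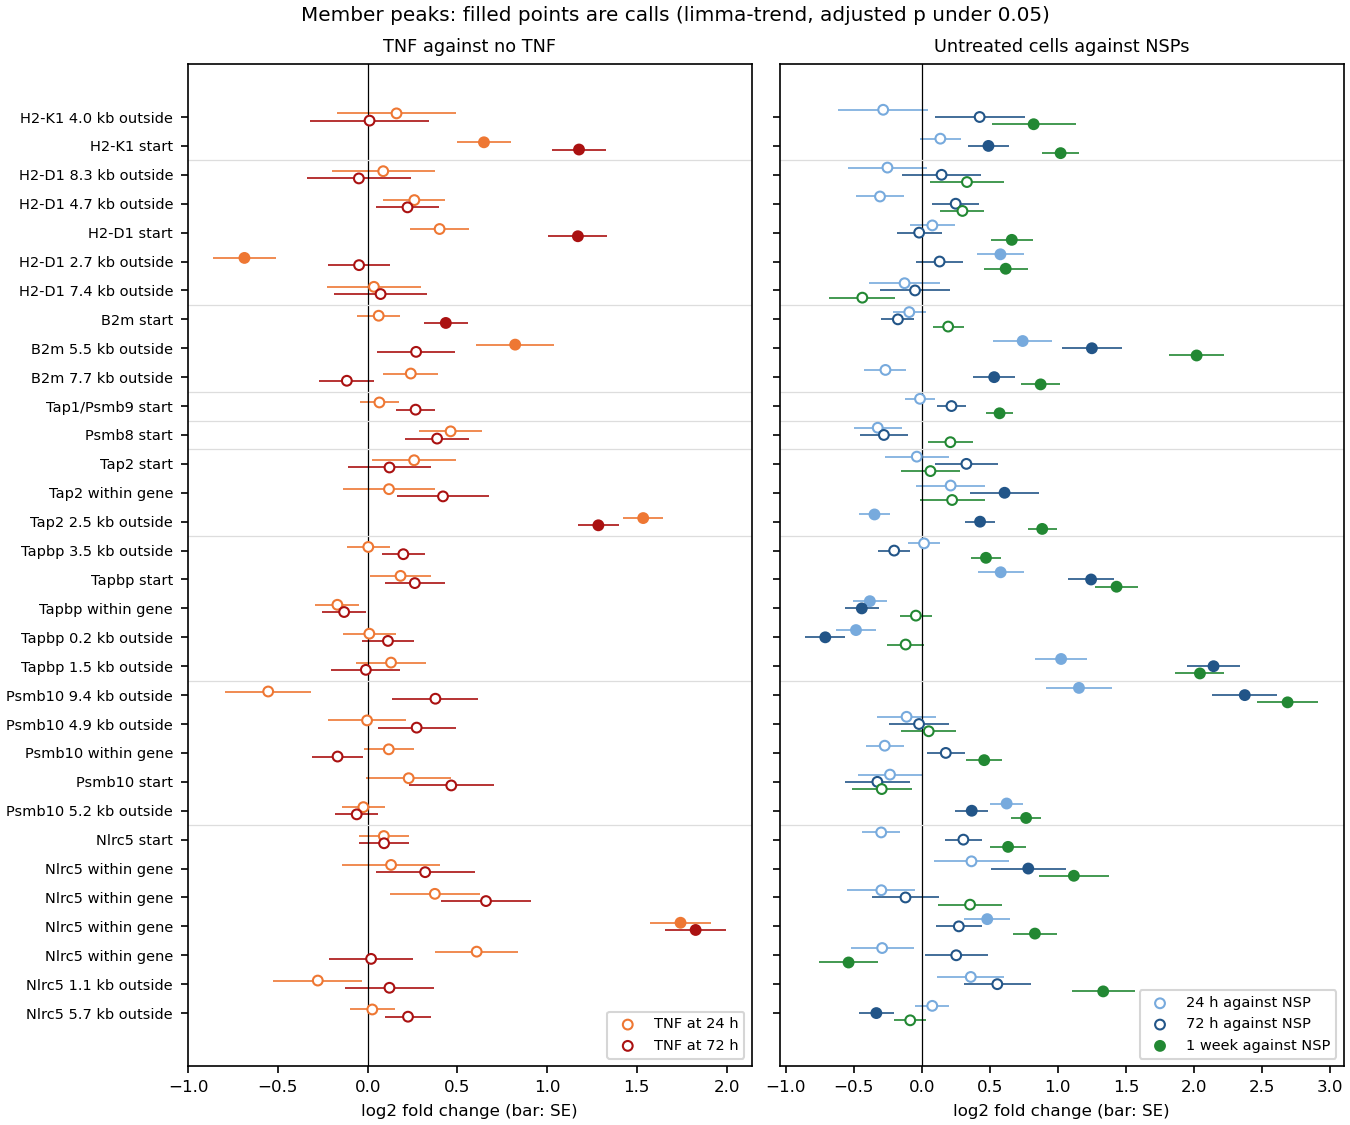
Log2 fold changes with SE of the 32 member peaks, named by gene and distance from the gene body, for TNF against no TNF (left) and for untreated cells against NSPs (right), with calls filled. With TNF the largest changes were at the Nlrc5 and Tap2 sites and at the H2-K1 and H2-D1 starts.

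H2-K1, a classical heavy chain, showed the increase at its start peak (chr17:34000118-34000618) at both times. Its 3 libraries at 24 h held 129, 176 and 148 normalised reads, and those at 24 h with TNF held 263, 204 and 242. At 72 h they held 176, 203 and 195, and with TNF 456, 399 and 449. Every TNF library was above every untreated library of its time. The log2 fold change was 0.65 ± 0.15 (SE, adjusted p = 0.00384) at 24 h and 1.18 ± 0.15 (adjusted p = 2.81e-06) at 72 h. The means at 72 h with TNF were thus 2.27 times those without. The other H2-K1 peak, 4001 bp from the gene, held between 14.8 and 84.9 over the 19 libraries and was not called in either TNF comparison.

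The start peak of H2-D1, the other classical heavy chain (chr17:35262777-35263277), was called with TNF at 72 h. The 72 h libraries held 179, 221 and 171 normalised reads without TNF and 434, 401 and 449 with TNF (log2 fold change 1.17 ± 0.16 SE, adjusted p = 1.40e-05), and the groups did not overlap. At 24 h the values were 181, 267 and 171 without and 264, 248 and 292 with TNF, with 1 untreated library inside the range of the treated ones. The difference there was not called (log2 fold change 0.40 ± 0.16 SE, adjusted p = 0.128). The H2-D1 peak 2662 bp past the gene (chr17:35269909-35270409) was the 1 member peak called lower with TNF. It held 157, 150.5 and 153 at 24 h and 103, 89.4 and 92.4 with TNF (log2 fold change -0.69 ± 0.17 SE, adjusted p = 0.00888). At 72 h it held 113 ± 9.69 and 109.9 ± 21.4 (mean ± SD, n = 3 each), with overlapping libraries and no call (log2 fold change -0.05 ± 0.17 SE, adjusted p = 0.901).

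B2m encodes the light chain that every classical class I molecule needs. Its 3 peaks also lie in the annotated body of Patl2. Its start peak (chr2:122147389-122147889) held 401, 471 and 472 normalised reads at 72 h and 609.7, 539 and 672 with TNF (log2 fold change 0.44 ± 0.12 SE, adjusted p = 0.0166), with no overlap. The call was lost without 72 h replicate 1 (log2 fold change 0.36), without TNF-treated replicate 1 (0.43) or without TNF-treated replicate 3 (0.36). At 24 h the start peak held 474 ± 16.8 without and 497 ± 61.5 with TNF (mean ± SD, n = 3 each, log2 fold change 0.06 ± 0.12 SE, adjusted p = 0.84). B2m was the most open of these 3 promoters in NSPs, with 505 normalised reads against 136 at H2-K1 and 195 at H2-D1, in peaks of equal length.

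**Figure D2:**
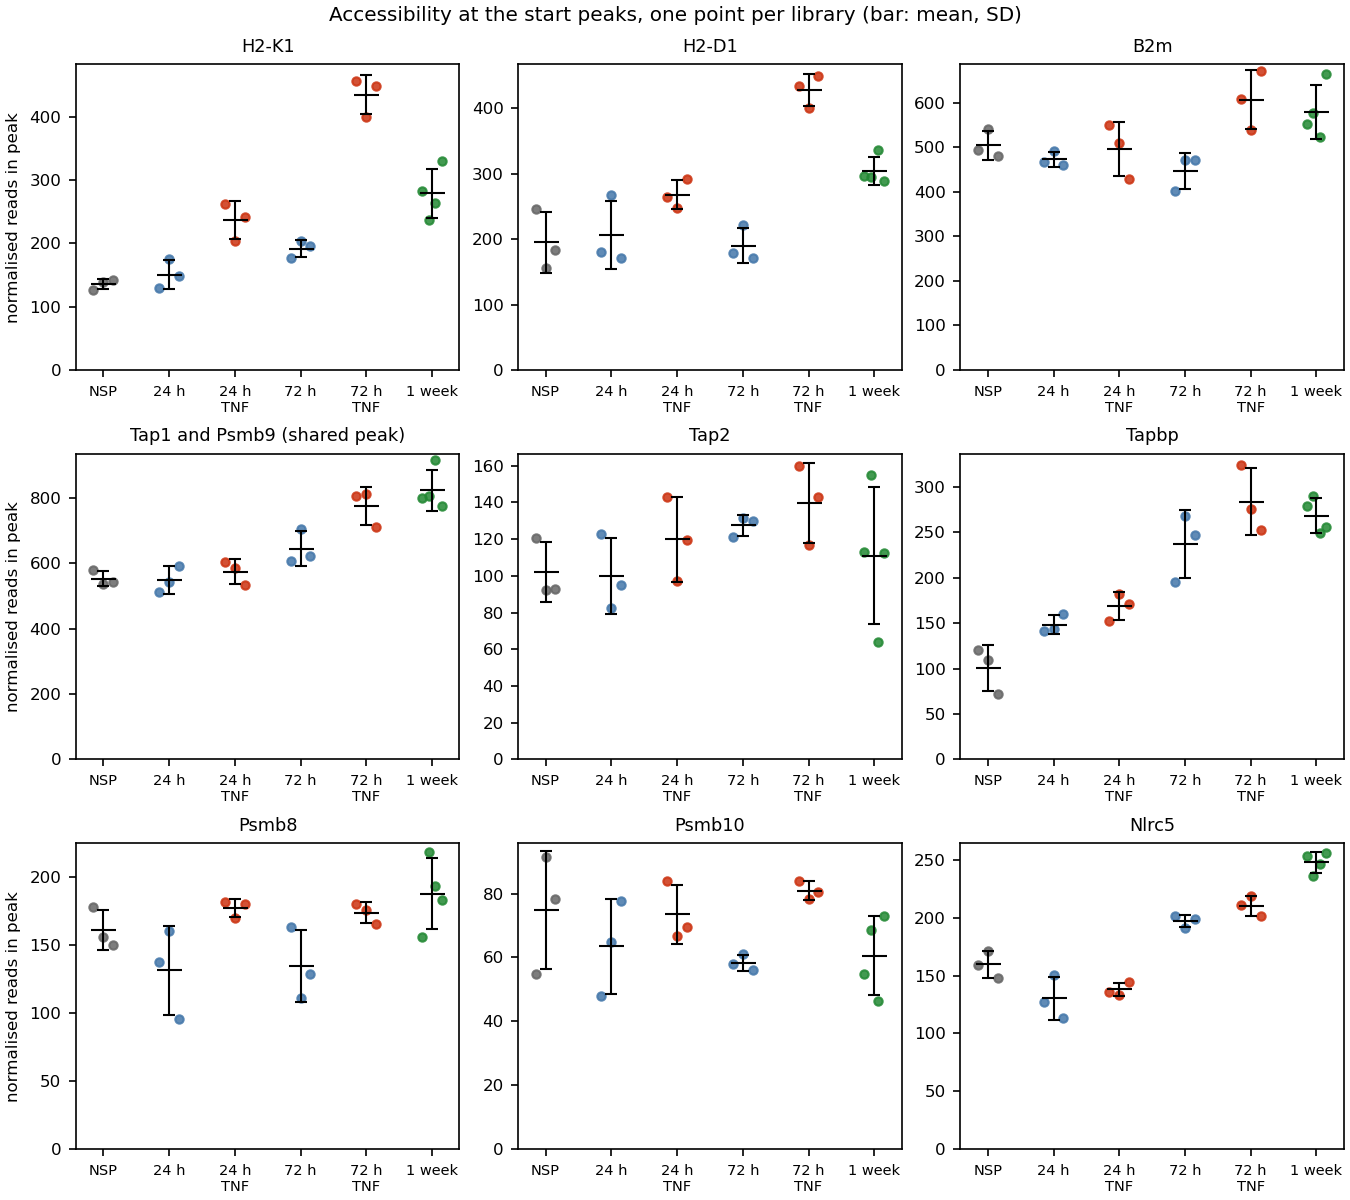
Normalised reads at the 9 start peaks in each of the 19 libraries (points, y axes from 0) by group (x axis), with mean and SD as bars. At H2-K1 and H2-D1 the 3 libraries at 72 h with TNF lay between 399 and 456, above all others, and at the shared Tap1 and Psmb9 peak the 4 libraries at 1 week lay between 776 and 915.

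The 3 windows with a kappa-B motif were those of the 3 start peaks called higher at 72 h, and the start peaks of the 5 genes whose windows lacked it were not called at either time. Among these 5 genes, Tap1 and Psmb9 share 1 start peak. The window searched for Psmb8 lies outside its start peak, so its letters do not describe that peak. The split rests on the call threshold. At 72 h B2m stood at 0.44 ± 0.12, and Psmb10 (0.47 ± 0.24) and Psmb8 (0.39 ± 0.18) were near it without a call. The Tap1 and Psmb9 peak (0.27 ± 0.11) and Tapbp (0.26 ± 0.17) were lower. The H2-K1 and H2-D1 windows are alike, and the B2m call was lost when some single libraries were left out. The pattern was seen after the calls were known and carries no test.

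A second B2m peak, 5549 bp past the gene and nearer to Trim69 (chr2:122158381-122158881), held 51.2, 45.7 and 77.6 at 24 h and 118, 99.1 and 88.3 with TNF (log2 fold change 0.82 ± 0.22 SE, adjusted p = 0.0129). The treated libraries were all above the untreated ones. This call was lost without 24 h replicate 1 (log2 fold change 0.75), 24 h replicate 2 (0.67) or TNF-treated replicate 1 (0.71). At 72 h the libraries overlapped and the peak was not called (log2 fold change 0.27 ± 0.22 SE, adjusted p = 0.481).

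In the block of Psmb9, Tap1, Psmb8 and Tap2, the site called with TNF was none of the start peaks. It lay 2549 bp past the end of Tap2 (chr17:34218620-34219120), the gene of one chain of the peptide pump, and its next neighbour on the other side was H2-Ob, an MHC class II gene, 20035 bp away. At 24 h it held 222, 211 and 201 normalised reads, and with TNF 581, 652 and 611. At 72 h it held 389, 333 and 367, and with TNF 843, 868 and 945. All TNF libraries were higher than every untreated library in the study, 1 week included. The log2 fold change was 1.54 ± 0.11 (adjusted p = 3.12e-10) at 24 h and 1.29 ± 0.11 (adjusted p = 7.01e-09) at 72 h. The untreated mean was 363 at 72 h and 211 at 24 h, and the ratio of means fell from 2.91 to 2.44, a difference between times that was not called (interaction -0.25 ± 0.16, adjusted p = 0.751). Which gene this site belongs to was not measured.

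The promoter shared by Tap1 and Psmb9 (chr17:34187183-34187683), whose genes run in opposite directions from it, was the most open start peak. At 72 h it held 606, 706 and 623 normalised reads and with TNF 806, 811 and 711, and the groups did not overlap, but the difference was not called (log2 fold change 0.27 ± 0.11 SE, adjusted p = 0.109). At 24 h it held 511, 543 and 594, and with TNF 606, 585 and 533, with overlap (log2 fold change 0.07 ± 0.11 SE, adjusted p = 0.801). The start peak of Psmb8, 533 bp before that gene and 437 bp past Tap1 (chr17:34197412-34197912), held 138, 161 and 96.1 at 24 h and 182, 170.2 and 181 with TNF. The groups did not overlap at either time, and neither difference was called (log2 fold change 0.46 ± 0.18 SE, adjusted p = 0.0988 at 24 h and log2 fold change 0.39 ± 0.18 SE, adjusted p = 0.168 at 72 h). The Tap2 start peak (chr17:34204243-34204743) held 128 ± 5.73 and 139.9 ± 21.8 (mean ± SD, n = 3 each) at 72 h, with overlap and no call at either time (log2 fold change 0.12 ± 0.23 SE, adjusted p = 0.799).

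**Figure D3:**
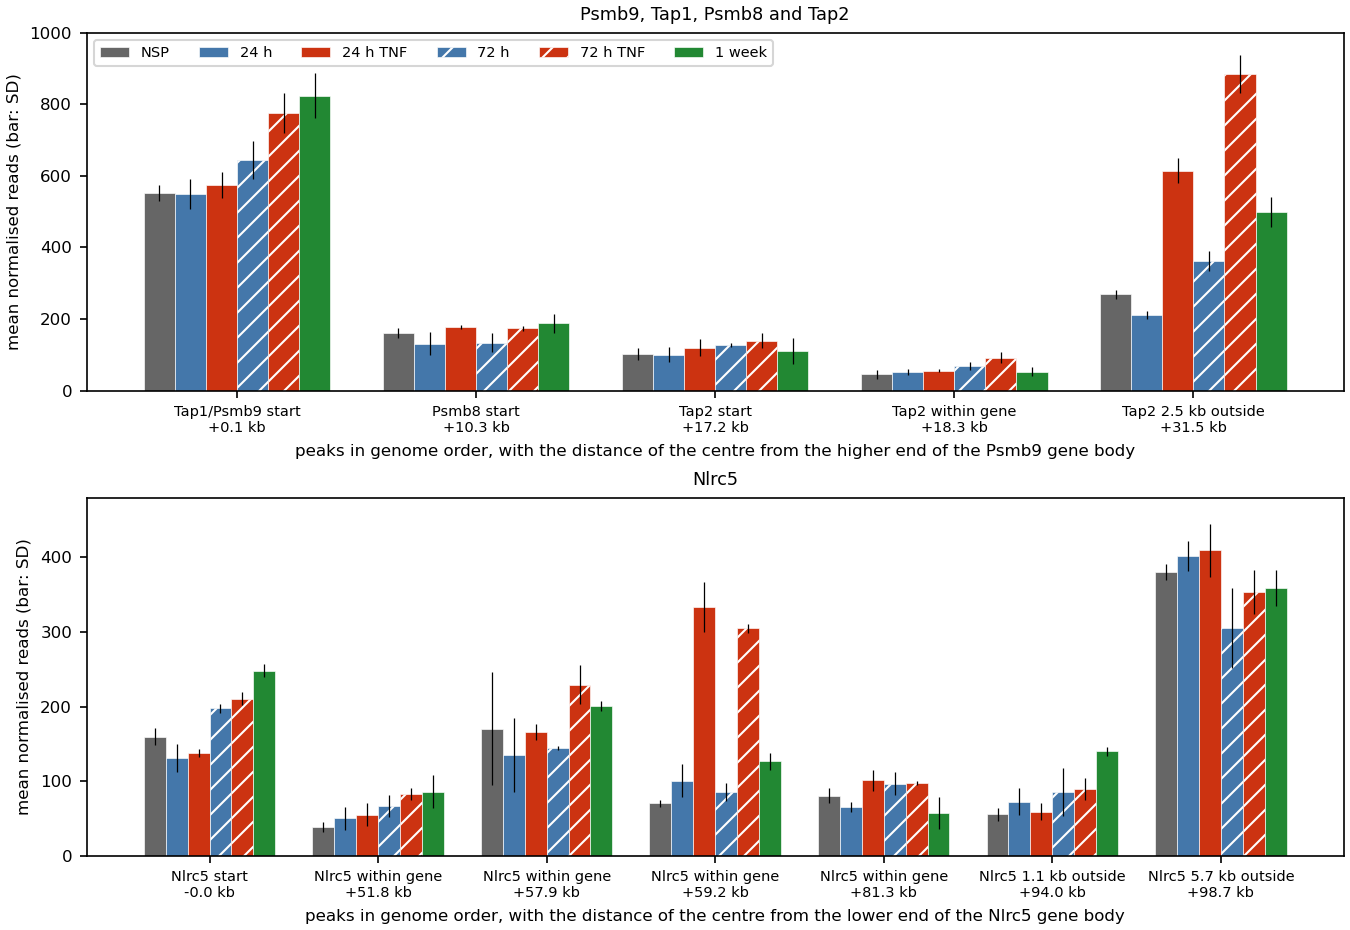
Mean normalised reads with SD (y axis) of each group at the peaks around Psmb9, Tap1, Psmb8 and Tap2 (top) and around Nlrc5 (bottom), in genome order (x axis). In each locus the TNF groups stand out at 1 peak that is not a start peak, which reached 885 past Tap2 and 334 within Nlrc5.

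Tapasin and the third immunoproteasome subunit showed no call with TNF. The Tapbp start peak (chr17:33919278-33919778) held 196, 268 and 247 at 72 h and 323.6, 275 and 252 with TNF, with overlap (log2 fold change 0.26 ± 0.17 SE, adjusted p = 0.354). The Psmb10 start peak (chr8:105938142-105938642), one of the least open, held 57.9, 61.0 and 56.1 at 72 h, and with TNF 84.0, 78.3 and 80.4. These groups did not overlap, but the difference was not called (log2 fold change 0.47 ± 0.24 SE, adjusted p = 0.223). At 24 h the estimates were 0.18 ± 0.17 at Tapbp and 0.23 ± 0.24 at Psmb10. The most open member peak, in the Tapbp window but 214 bp from an end of Zbtb22 (chr17:33915712-33916212), held 1683 and 1686 at 24 h and 1447 and 1663 at 72 h (means without and with TNF) and was not called.

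Nlrc5 showed the largest TNF change of the 32 peaks, inside its gene body of 92938 bp and not at its start peak. No start was listed for Nlrc5, so its start peak is the one nearest to a gene end. Whether a start lies within the body could not be checked. The site (chr8:94493290-94493790) lay 33732 bp from the nearer gene end. It held 104, 76.7 and 121 at 24 h and 301, 367 and 333 with TNF. At 72 h it held 92.6, 71.8 and 93.0, and with TNF 302, 312 and 301. The lowest of the 6 TNF libraries, 301, was above the highest untreated library of the study, 139 at 1 week. The log2 fold change was 1.74 ± 0.17 (adjusted p = 4.41e-08) at 24 h and 1.83 ± 0.17 (adjusted p = 2.12e-08) at 72 h, which are ratios of means of 3.33 and 3.56. The neighbouring peak (chr8:94491953-94492453), named after its values were seen, held 144, 142 and 147 at 72 h and 259, 214 and 215 with TNF, a difference that was not called (log2 fold change 0.66 ± 0.25 SE, adjusted p = 0.0851). The Nlrc5 start peak (chr8:94434070-94434570) held 202, 191 and 199 at 72 h, and with TNF 211, 219 and 202, and was called at neither time (0.09 ± 0.14 at 24 h and 0.09 ± 0.14 at 72 h). The most open peak of the Nlrc5 window lay in Cpne2 (chr8:94532748-94533248) and was not called with TNF (0.03 ± 0.13 and 0.22 ± 0.13).

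**Figure D4:**
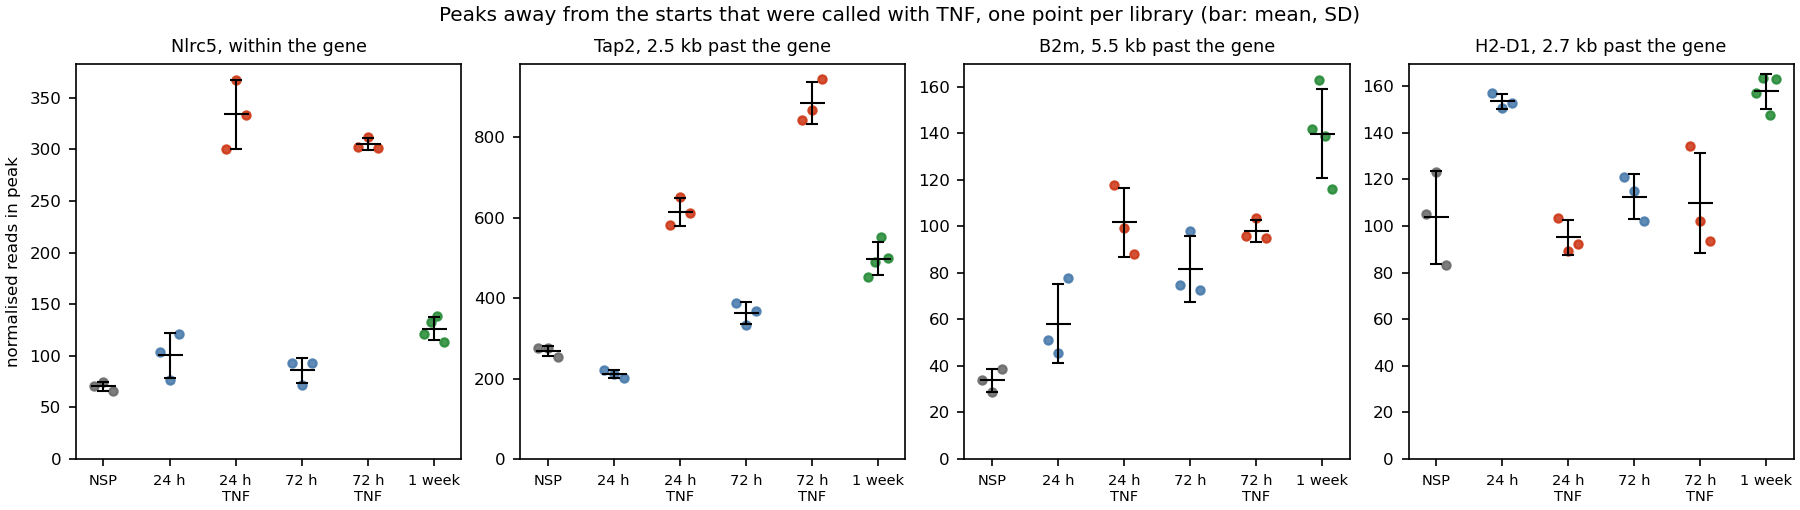
Normalised reads in each library (points, y axes from 0) by group (x axis), with mean and SD as bars. Shown are the 4 member peaks called with TNF that are not start peaks. The Nlrc5 and Tap2 sites were higher with TNF at both times, while the B2m and H2-D1 sites were called at 24 h only.

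Whether the TNF effect differed between 72 h and 24 h was tested as an interaction. Of the 32 member peaks, 0 were called higher and 0 lower, where 0% and 0.00112% of all peaks were called. At an unadjusted p under 0.05 there were 5 of the 32 member peaks, and 6675 of all 88919 peaks tested. The smallest p of a start peak was that of H2-D1, whose interaction was 0.77 ± 0.23 (unadjusted p = 0.00249, adjusted p = 0.445). At H2-K1 it was 0.53 ± 0.21 (adjusted p = 0.585), so calls at 1 time and not at the other do not show that the effect differed.

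The other genes of the pathway were read at their start peaks, on lists drawn up by function. The first held 14 other genes of the class I pathway, both further heavy chains, such as H2-Q4 and H2-T22, and folding or trimming factors, such as Calr, Tapbpl and Erap1. The heavy chains among them are near copies whose reads may be shared, like those of H2-K1 and H2-D1. Of the 14, 1 rose with TNF at 24 h and 2 at 72 h, and 0 fell. Over all peaks, 7.06% rose and 3.53% fell at 24 h, and 6.24% rose and 5.55% fell at 72 h. These shares are the background to the TNF counts of each list and of the cell type markers. In lists this short, counts of 0 or 1 lie near them. H2-Q4 rose from 302 to 520 normalised reads at 24 h (log2 fold change 0.79 ± 0.12, SE, adjusted p = 3.07e-05) and from 291 to 725 at 72 h (1.31 ± 0.12, adjusted p = 8.63e-09). H2-T22 rose from 481 to 633 at 72 h (0.40 ± 0.12, adjusted p = 0.0222). Of 11 constitutive proteasome subunit genes, 0 were called with TNF at either time. Their median log2 fold change was -0.09 at 24 h, and 0.12 at 72 h. Of 12 MHC class II genes, 5 had a start peak, and H2-Aa alone was called, at 72 h (85.1 to 149 normalised reads, 0.81 ± 0.20, adjusted p = 0.00797). Of 15 regulators of class I genes, 0 were called at 24 h and 3 rose at 72 h. They were Irf1, an interferon-induced activator of class I genes (309 to 465, 0.58 ± 0.13, adjusted p = 0.00321), and the NF-κB subunit genes Rela (417 to 568, 0.44 ± 0.11, adjusted p = 0.00979) and Nfkb1 (161 to 223, 0.46 ± 0.15, adjusted p = 0.0388).

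Immune cells carry much class I, so microglia markers were read beside these results. Cx3cr1, Csf1r, Ptprc, Itgam and C1qa, 5 of the 8 markers, had no peak within 1 kb of a start. The sum over the other 3 ranged from 335 to 350 normalised reads at 24 h and from 307 to 345 with TNF, and from 327 to 386 at 72 h and 341 to 415 with TNF. The ranges overlapped at both times, and 0 of the 3 peaks were called with TNF. Among astrocyte markers, Gfap fell with TNF at 72 h from 529 to 246 (log2 fold change -1.10 ± 0.22, adjusted p = 0.00106) and S100b from 282 to 194 (-0.54 ± 0.15, adjusted p = 0.015). The sum over the 6 astrocyte markers was lower with TNF, with 1717 to 2002 against 1546 to 1656 at 24 h and 2008 to 2180 against 1644 to 1746 at 72 h. Of the oligodendrocyte lineage markers, 2 of 6 had a start peak, and Olig2 rose at 72 h from 375 to 485 (0.37 ± 0.11, adjusted p = 0.0334). Of the 4 progenitor, 3 neuron and 1 fibroblast marker peaks, 0 were called with TNF at either time. The part of cell type shares in the TNF results was not tested.

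Differentiation without TNF was followed from NSPs to 24 h, 72 h and 1 week, with the same NSP libraries in each comparison. Member peaks moved in both directions at 24 h and mostly upward by 1 week. At 24 h, 7 of 32 were called higher (24.2% of all peaks) and 3 lower (23%). At 72 h, 10 were called higher (28.3%) and 3 lower (30.9%). At 1 week, 18 were called higher (33.7%) and 1 lower (33.6%). The median log2 fold change of the members was -0.06, 0.25 and 0.52 at the 3 times, beside -0.07, -0.06 and 0.01 over all peaks. The lower calls at 24 h numbered 7 without NSP replicate 1 and 5 without 24 h replicate 2, and the higher calls at 24 h numbered 4 without NSP replicate 3. With values scaled to total reads in peaks, 24 h had 7 higher and 0 lower calls, beside 29.4% and 13.9% of all peaks under that scaling. At 72 h it gave 17 and 1, beside 36.7% and 20.8%, and at 1 week the 18 and 1 did not move, beside 31.1% and 35.9%. Without NSP replicate 1 there were 9 higher and 4 lower at 72 h and 18 and 1 at 1 week. The scaling to total reads shifted the median of all peaks to 0.11 at 24 h and 0.21 at 72 h.

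Among the start peaks, Tapbp was the one called at 24 h, and its estimate at 1 week was the largest of the 9. It held 121, 109 and 72.4 normalised reads in NSPs, 141, 143 and 160.1 at 24 h and 196, 268 and 247 at 72 h. At 1 week it held 279, 289.9, 249 and 255. No NSP library overlapped with a later one, and the log2 fold changes were 0.58 ± 0.17 (adjusted p = 0.0056), 1.24 ± 0.17 (adjusted p = 3.07e-07) and 1.43 ± 0.16 (adjusted p = 4.01e-09). The call at 24 h was lost without NSP replicate 3 (0.36) and in a fit to the compared groups only. A second peak inside Tapbp, 958 bp from its start (chr17:33920186-33920686) and named after its values were seen, went the other way. It was more open, with 569 ± 52.9 normalised reads in NSPs, 437 ± 37.3 at 24 h and 418 ± 13.9 at 72 h (mean ± SD). It was called lower at 24 h (-0.38 ± 0.12, adjusted p = 0.0122) and 72 h (-0.44 ± 0.12, adjusted p = 0.00306). At 1 week it held 552 ± 48.1 and was not called (-0.04 ± 0.12). H2-K1 was called at 72 h (0.49 ± 0.15, adjusted p = 0.00565) and at 1 week, where it held 283, 237, 264 and 330.3 against 127, 139 and 142 in NSPs (log2 fold change 1.02 ± 0.14 SE, adjusted p = 2.02e-07). The untreated level at 1 week lay between those at 72 h without and with TNF, with no overlap with either.

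H2-D1, the Tap1 and Psmb9 promoter and the Nlrc5 start were called at 1 week only. H2-D1 held 247, 156 and 183 in NSPs and 296, 295, 337 and 288 at 1 week (log2 fold change 0.66 ± 0.15 SE, adjusted p = 4.03e-04). The Tap1 and Psmb9 promoter held 579, 537 and 544 in NSPs, and at 1 week 799.7, 805, 915 and 776 (log2 fold change 0.57 ± 0.10 SE, adjusted p = 1.19e-05). The Nlrc5 start held 159, 171 and 148 in NSPs, and at 1 week 254, 236, 246 and 256 (log2 fold change 0.63 ± 0.13 SE, adjusted p = 8.54e-05). In none of these 3 did the groups overlap. The start peaks of B2m, Tap2, Psmb8 and Psmb10 were not called against NSPs at any time, and their 1 week estimates were 0.19 ± 0.11, 0.06 ± 0.22, 0.21 ± 0.17 and -0.29 ± 0.22. A more open peak inside Psmb10, 1280 bp from its start (chr8:105936862-105937362), was named after its values were seen. It rose from 364 ± 55.9 in NSPs to 499 ± 62.7 at 1 week (mean ± SD, log2 fold change 0.46 ± 0.13 SE, adjusted p = 0.00302). It was not called with TNF (0.12 ± 0.14 at 24 h and -0.17 ± 0.14 at 72 h).

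The Nlrc5, Tap2 and H2-D1 sites away from the start peaks were also called during untreated differentiation. The Nlrc5 site rose from 70.5 ± 4.56 in NSPs to 100.3 ± 22.2 at 24 h (mean ± SD, n = 3 each, log2 fold change 0.48 ± 0.17 SE, adjusted p = 0.0208) and to 126 ± 11.3 at 1 week (n = 4, log2 fold change 0.83 ± 0.16 SE, adjusted p = 3.80e-05), and was not called at 72 h (log2 fold change 0.27 ± 0.17 SE, adjusted p = 0.169). Its 24 h call was lost without NSP replicate 3 (0.43), 24 h replicate 1 (0.45) or 24 h replicate 3 (0.34). The Tap2 site went from 277, 275 and 254 in NSPs down to 222, 211 and 201 at 24 h (log2 fold change -0.35 ± 0.11 SE, adjusted p = 0.0123). It was then higher than in NSPs at 72 h (log2 fold change 0.43 ± 0.11 SE, adjusted p = 0.0017) and at 1 week (log2 fold change 0.89 ± 0.11 SE, adjusted p = 1.73e-08). The fall at 24 h was not called after scaling to total reads (-0.16) or with loess offsets (-0.18). The H2-D1 site past the gene was higher than in NSPs at 24 h (log2 fold change 0.58 ± 0.17 SE, adjusted p = 0.00731) and 1 week (log2 fold change 0.62 ± 0.16 SE, adjusted p = 0.00143) and not called at 72 h. Its 24 h call was lost without NSP replicate 3 (0.43).

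The largest differentiation changes in the windows lay nearer to other genes. A peak inside Pskh1, 9395 bp past Psmb10 (chr8:105926083-105926583), rose from 25.9 ± 2.87 in NSPs to 59.7 ± 12.7 at 24 h, 141 ± 38.5 at 72 h and 173 ± 22.1 at 1 week (log2 fold change at 1 week 2.69 ± 0.22, adjusted p = 1.31e-11). A peak inside Rgl2, 1515 bp past Tapbp (chr17:33930555-33931055), rose from 51.9 ± 15.1 to 105 ± 23.1, 226 ± 21.2 and 211 ± 16.5 (2.04 ± 0.18, adjusted p = 4.21e-11). Both were named after their values were seen. The B2m peak near Trim69 rose at all 3 times and reached 142, 163, 139 and 116 at 1 week from 33.9, 28.7 and 38.5 in NSPs (log2 fold change 2.02 ± 0.20 SE, adjusted p = 7.69e-10), with its 24 h call lost without 24 h replicate 3 (0.52). The peak 13 bp from an end of Slc12a4 in the Psmb10 window (chr8:105943327-105943827) was also higher at all 3 times, with 488 ± 40.6 in NSPs and 751 ± 28.5 at 24 h (log2 fold change 0.62 ± 0.12 SE, adjusted p = 8.48e-05). Its call at 72 h was lost without 72 h replicate 3 (0.30). Lower calls were made at 24 h and 72 h at 2 further peaks of the Tapbp window. They were the peak inside Tapbp given above and one 26 bp from an end of Rgl2. The Cpne2 peak was called lower at 72 h (log2 fold change -0.33 ± 0.13 SE, adjusted p = 0.0251). So was 1 peak within Nlrc5 at 1 week (log2 fold change -0.54 ± 0.22 SE, adjusted p = 0.0304), where the groups overlapped. The Nlrc5 call was the 1 lower call at 1 week, and 0 remained without NSP replicate 2 or without 1 week replicate 1, 2 or 3. The Cpne2 call was lost without 72 h replicate 2 (-0.20).

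Between 72 h and 1 week without TNF, 15 of 32 member peaks were called higher (22.5% of all peaks) and 1 lower (16.2%), with a median log2 fold change of 0.35 beside 0.02 over all peaks. These calls moved with the scaling. With loess offsets there were 6 higher and 1 lower, beside 13% and 11.6% of all peaks. Scaled to total reads there were 1 higher and 4 lower, beside 8.95% and 33.8%, and the median over all peaks was -0.31. Of the 9 start peaks 6 were called higher, led by H2-D1 (0.68 ± 0.15, adjusted p = 9.50e-04) and H2-K1 (0.53 ± 0.14, adjusted p = 0.00343). Both were 0.34 and 0.19 under total reads, and no longer called. With loess offsets the sign turned at the Tap1 and Psmb9 promoter and at B2m, and with total reads it turned at the Nlrc5 start, which also lost its call without any 1 of the 7 libraries compared (0.31 to 0.35). The Psmb8 start peak lost its call without 72 h replicate 2 (0.36), 72 h replicate 3 (0.47) or 1 week replicate 2 (0.41). B2m lost it without 72 h replicate 1 (0.29) or 1 week replicate 4 (0.30).

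The other lists were also read over differentiation, at their start peaks. The background to these counts is the shares of all peaks called higher and lower, which were 24.2% and 23% for the 24 h libraries, 28.3% and 30.9% for those of 72 h, 33.7% and 33.6% by 1 week, and 22.5% and 16.2% from 72 h to 1 week. Of 11 constitutive proteasome genes, 7 rose and 0 fell from NSPs to 1 week, after 0 and 3 at 24 h and 1 and 1 at 72 h. Of the 14 other genes of the class I pathway, 5 rose and 1 fell by 1 week, after 1 and 3 at 24 h and 3 and 5 at 72 h. Of the 15 regulators, 7 rose and 1 fell by 1 week, after 1 and 6 at 24 h and 1 and 9 at 72 h. From 72 h to 1 week, 14 of the 15 regulators, 7 of the 14 other class I pathway genes and 6 of the 11 proteasome genes rose and 0 fell, in the comparison whose calls moved with the scaling. Of the 5 MHC class II genes with a start peak, 1 rose and 0 fell by 1 week, after 0 and 1 at 24 h and 1 and 1 at 72 h, and 1 rose and 0 fell from 72 h to 1 week.

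Markers of other cell types were also read over differentiation. Of all peaks, 23% were called lower than in NSPs at 24 h, 30.9% at 72 h and 33.6% at 1 week. From 72 h to 1 week 16.2% were called lower. Of the 3 microglia marker peaks, 0 were called at 24 h or 72 h, and at 1 week 2 were lower, both against NSPs (median log2 fold change of the 3 was -1.11) and against 72 h (-0.70). Their sum ranged from 317 to 401 normalised reads in NSPs and from 288 to 351 at 1 week. Both oligodendrocyte lineage peaks together summed to 1436 to 1755 in NSPs and 511 to 578 at 1 week, and 1 of them was called lower at each time. Of the 4 progenitor marker peaks, 4 were lower than in NSPs at 24 h, 4 at 72 h and 2 at 1 week, and their sum was 2156 to 2373 at 1 week. Of the 3 neuron marker peaks, 1 was lower at each time, which is near the shares of all peaks. Their sums were 810 to 1015 in NSPs and 680 to 918 at 1 week. The fibroblast marker peak was lower at 24 h and 72 h, and at 1 week its 187 to 206 normalised reads lay within the 179 to 229 of NSPs. The part of these cell types in the member values over differentiation was not tested.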

How the data were processed

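ATAC-seq values were analysed in 19 libraries grouped by their sample titles. The authors deposited 1 table with a signal for every peak in every library, derived from reads in peaks. According to the methods and the submitters' processing notes, reads were trimmed (Trim Galore), aligned to mm10 (Bowtie2), freed of mitochondrial reads (SAMtools) and used to call peaks (MACS2). Tool versions, the normalisation, any removal of duplicates and any transposase offset of reads are not given in the sources used here. The values of a library were all (100%) multiples of its lowest value, within a tolerance of 0.001, so reads were recovered for the count tests. Of the values of 2 to 20 reads 61.8% were odd, so recovered reads may not be single independent fragments.

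Values were transformed as log2(value + 1), a scale that understates changes of low peaks, and all 19 libraries entered 1 limma-trend fit with group means (R 4.3.3, limma 3.58.1). Peaks kept by filterByExpr of edgeR 4.0.16 (minimum count 10) were tested, 88919 in all, with 1235 left out. All 32 member peaks passed. Two-sided p-values received the Benjamini-Hochberg adjustment across all tested peaks within each of 7 comparisons. The fit was tested on simulated data. Gene ends and promoter windows came from RefSeq tables of GRCm38.p6. The gene table gave no exons, so exons, introns and UTRs were not assigned. A start peak is the peak nearest to the start in the promoter table, within 1000 bp, or, for Tap2 and Nlrc5, nearest to either gene end. Peaks named with values were the start peak of each gene, its highest peak, and up to 3 peaks per gene called with TNF. The members, lists and rules were chosen with earlier results of these data known. Alternatives were other scalings, edgeR quasi-likelihood and DESeq2 1.42.0 on recovered reads, a pseudocount of 5, no filter, a window of 1 kb, a fit to the compared groups only, a replicate block and leaving out each library.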

Additional observations from a re-analysis of the deposited data

Results flagged for a closer look

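Each of the 32 member peaks was checked in the 4 libraries at 1 week for a library far from the others, by Dixon's test at the 95% level, which chance passes about 1 time in 20. The check found 2 values, both in 1 week replicate 3, the library with the fewest reads. The H2-D1 start peak held 337 normalised reads there, against 288 to 296 in the other 1 week libraries. The peak inside Rgl2 in the Tapbp window held 235.5 there, against 201 to 205 in the others. No member peak had a called difference of the TNF effect between times.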

How the results depend on the processing

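The named TNF calls at Nlrc5, Tap2, H2-K1 and H2-D1 kept their direction and their side of the threshold under every alternative run, and those at B2m lost the threshold only when single libraries were left out, as given with those results. Counts of member peaks moved as follows. With a window of 1 kb, TNF at 24 h gave 2 higher and 0 lower, and higher calls numbered 2 at 24 h, 4 at 72 h and 8 at 1 week against NSPs and 9 at 1 week against 72 h, because fewer peaks were counted. In a fit to the compared groups only, 24 h against NSPs gave 4 higher and 1 lower, and 1 week against NSPs gave 0 lower. Scaled to total reads, 24 h gave 0 lower, 72 h gave 17 higher and 1 lower, and 1 week against 72 h gave 1 higher and 4 lower. With loess offsets, 24 h and 72 h gave 1 lower each and 1 week against 72 h gave 6 higher. The causes were not tested. Leaving out 1 library gave 4 to 7 higher and 2 to 7 lower at 24 h, and 0 to 1 lower at 1 week against NSPs. Log2 fold changes of 1 week against 72 h reversed with loess offsets at the Tapbp window peak near Zbtb22 (-0.0169), the Tap1 and Psmb9 promoter (-0.0947), the B2m start (-0.02) and the Psmb10 window peak near Slc12a4 (-0.0557), and with total reads at the Nlrc5 start (-0.013). Whether replicate numbers pair the samples could not be decided from deviations around means of 3 libraries, and the samples were fitted as unpaired. At 24 h, same-numbered libraries deviated together by correlations of 0.034, 0.026 and 0.106, and differently numbered ones by -0.066 to 0.036. At 72 h the ranges were -0.026 to 0.02 and -0.045 to 0.031. The numbers come from the sample titles, and the titles of the 72 h TNF libraries run from 1 to 3 while their column names run from A2 to A4. Matched by column name, the shared numbers at 72 h gave 0.03 and 0.02. With a replicate block by title number, 1 week against NSPs gave 2 lower calls, the 1 count that moved by more than 1.5 times. Total-read scaling turned the split of all peaks called with TNF at 72 h from 5551 higher and 4932 lower to 4216 and 6594.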
